A study of Homo sapiens with 3 samples.

Results

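Cohesin subunits and regulators were followed in LNCaP-abl cells after silencing of the transcription factor E2F1. The 10 genes were taken by symbol: the ring subunits SMC1A, SMC3 and RAD21, the ring-bound subunits STAG1 and STAG2, the regulators PDS5A and PDS5B, the loader NIPBL, and the acetyltransferases ESCO1 and ESCO2. All 10 were among the 22613 genes listed in each library, and all 10 passed the minimum mean of 1 FPKM (fragments mapped, scaled by gene length and library size) that left 14401 genes to test.

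Cohesin is a ring of SMC1A, SMC3 and RAD21 that holds sister chromatids together from DNA replication until anaphase and extrudes chromatin loops in interphase. A STAG protein binds RAD21, NIPBL with its partner MAU2 loads the ring onto DNA, and WAPL with PDS5 proteins releases it. During S phase ESCO2, with ESCO1, acetylates SMC3, which lets sororin (CDCA5) bind and hold off release; ESCO1 also acts outside S phase, and HDAC8 removes the acetyl mark after mitosis. STAG2 is among the cohesin genes most often mutated in human cancers.

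The study asked how gene expression differed before and after E2F1 was silenced. LNCaP-abl cells come from the prostate cancer line LNCaP and grow without androgen, here in medium with charcoal-stripped serum, at a labelled passage range shared by all samples. One group received control siRNA (2 libraries, control 0 and control 1) and the other a pool of siRNAs against E2F1 (1 library, siE2F1), each for 72 h, with a lipid reagent used in both. Where 3 values are given together, they are in the order control 0, control 1, siE2F1. Nothing in the labels says that the controls were separate cultures, so a p-value here rests on the spread of 2 libraries that may be technical repeats, and the siE2F1 library has no replicate.

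E2F1 itself stood at 10.6 FPKM in each control and 1.68 FPKM in siE2F1 (limma, log2 fold change -2.12, adjusted p = 0.0311), a call that did not hold when 0.1 took the place of 1 as pseudocount (limma adjusted p = 0.0601) or when low genes were kept in (limma adjusted p = 0.159). Read depth is unknown because the files hold no counts. The 6 luminal prostate markers used summed to 760.8, 787.9 and 815.4 FPKM, but went both ways. Of the 6, 2 were below both controls and 2 above, beside 39.7% and 43.7% of all genes tested. HOXB13 was at 122.9, 118.9 and 94.6 FPKM and TMPRSS2 at 20.5, 19.5 and 14.6 FPKM, while the luminal keratin KRT8 was at 110.6, 121.0 and 159.0 FPKM. With limma without small RNA genes, TMPRSS2 was called lower (adjusted p = 0.0498) and 0 of the 6 higher, and 0 of the 6 passed over all genes tested (2 lower and 1 higher at an unadjusted p under 0.05). Of the other cell type markers, KRT14 (basal) was listed at 0 in all 3 libraries, the endothelial marker PECAM1 was below 1 FPKM in each, and the fibroblast genes COL1A1 and PDGFRB summed to 1.16, 0.952 and 0.761 FPKM. The neuroendocrine gene SYP was below 0.4 FPKM in each library, and the leukocyte gene PTPRC was at 0.842, 1.15 and 0.423 FPKM. CD68, a leukocyte marker typical of macrophages, was at 5.47, 5.29 and 5.67 FPKM (log2 fold change 0.06, limma adjusted p = 0.561).

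The 10 genes split near the background: 5 were below both controls in siE2F1 and 5 above both, where 39.7% of all genes tested were below and 43.7% above. Their median log2 fold change was -0.06 (all fold changes in this account are on the log2(FPKM + 1) scale), beside a median of 0.01 over all genes tested. The largest difference was that of ESCO2, 43.5% lower in siE2F1, while its relative ESCO1 was 28.6% higher. SMC1A, STAG1 and RAD21 were 23.1%, 21.2% and 18.1% lower, NIPBL and STAG2 23.7% and 16.5% higher, while SMC3 was 8.34% lower, PDS5A 4.87% higher and PDS5B 0.302% higher. With limma over all genes tested, 0 of the 10 genes passed an adjusted p of 0.05 in either direction, where 0.104% of genes were called lower and 0.312% higher. At an unadjusted p under 0.05 there were 3 lower (ESCO2, RAD21 and STAG1; background 14.9%) and 1 higher (NIPBL; background 13.5%). In a second fit without small RNA genes, where the prior degrees of freedom were 3.19 in place of 1.69, 1 of the 10 was called lower (ESCO2; background 6.36%) and 0 higher (background 4.17%), with 3 and 2 at an unadjusted p under 0.05 (background 17.2% and 16.2%).

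**Figure D1:**
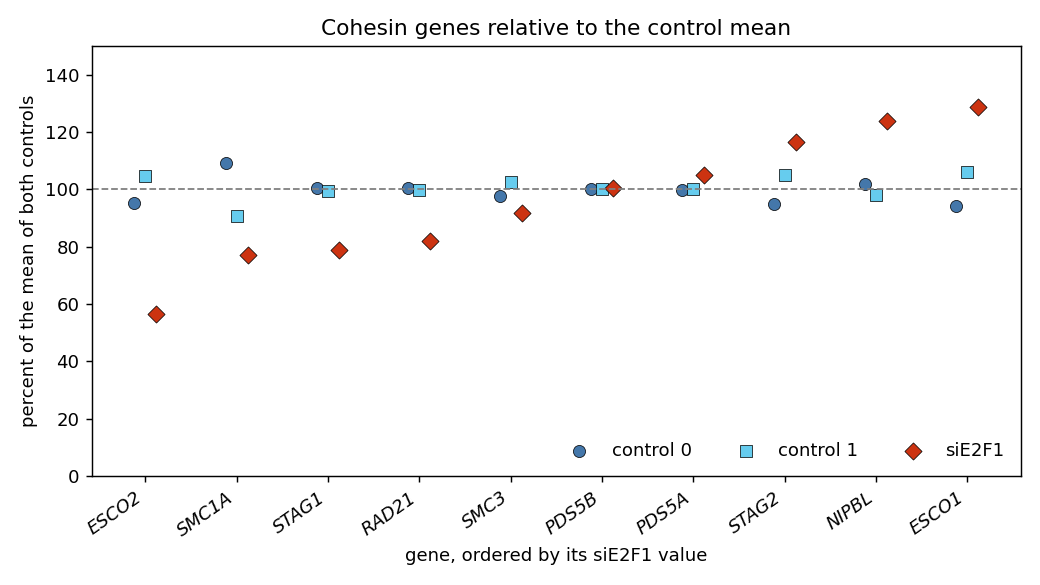
FPKM of each cohesin gene in each library as a percentage of the mean of both controls (vertical axis), with genes ordered by their siE2F1 value; circles and squares are the controls and diamonds the siE2F1 library. ESCO2 sits lowest, 43.5% under the control mean, and ESCO1 highest, 28.6% above it.

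In the controls the members differed in level, from 76.4 FPKM ± 0.339 (SD, n = 2) for RAD21 to 5.02 FPKM ± 0.0401 (SD, n = 2) for STAG1; FPKM is scaled by gene length, so levels of different genes can be set side by side. After RAD21 came STAG2 (32.1 FPKM), PDS5A (30.5 FPKM) and SMC3 (30.3 FPKM), whose control values overlapped, so their order is not resolved. SMC1A followed at 18.9 FPKM, then ESCO2 (10.2 FPKM), ESCO1 (8.93 FPKM), PDS5B (8.21 FPKM), NIPBL (7.80 FPKM) and STAG1. Among all genes tested these levels ran from percentile 33.6 (STAG1) to percentile 93.2 (RAD21). In siE2F1 the order changed: ESCO2, above ESCO1 in both controls, was below PDS5B, NIPBL and ESCO1 and above STAG1 alone. NIPBL, below PDS5B in both controls, was above it.

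**Figure D2:**
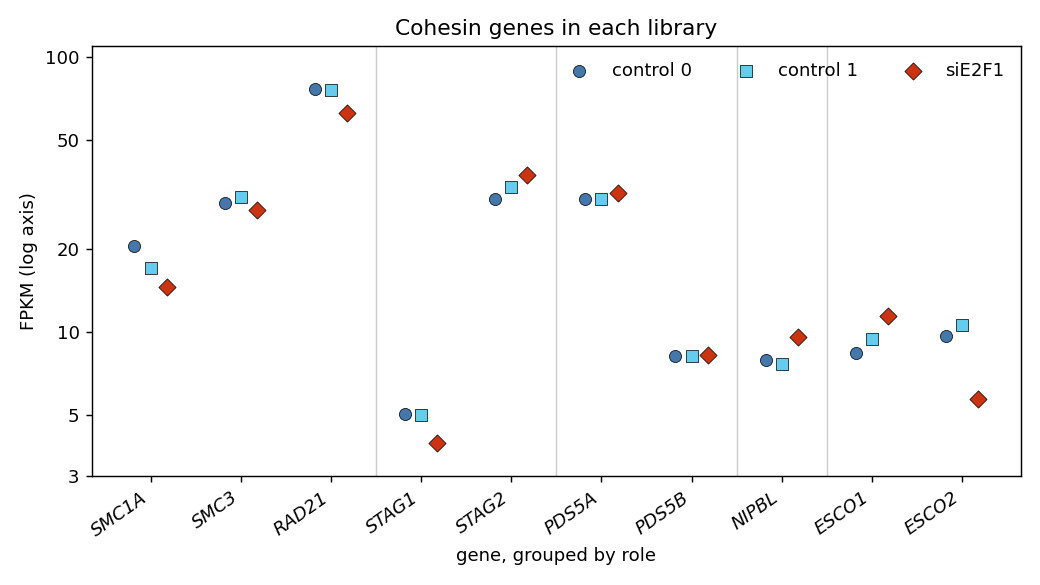
FPKM of the cohesin genes on a log axis in control 0 (circles), control 1 (squares) and siE2F1 (diamonds), with vertical lines between the roles. RAD21 was highest in each library, at 76.6, 76.1 and 62.6 FPKM, and STAG1 lowest, at 5.05, 4.997 and 3.96 FPKM.

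Each of the 3 ring subunits was lower in siE2F1 than in either control, as were 39.7% of all genes tested, and the amounts differed. RAD21, the kleisin that closes the ring and is cut by separase at anaphase, was at 76.6 FPKM in control 0, 76.1 FPKM in control 1 and 62.6 FPKM in siE2F1. The controls lay close together and siE2F1 well below them; the log2 fold change was -0.28 (standard error 0.0613, limma adjusted p = 0.137, and 0.0797 without small RNA genes). An antisense gene, RAD21-AS1, was listed at 0.631, 0.735 and 0.977 FPKM, and since the library kit does not mark strand its reads cannot be told from those of RAD21.

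SMC1A, which pairs with SMC3 at the hinge, was at 20.7, 17.2 and 14.6 FPKM. Here the controls were farther apart from each other than siE2F1 was from control 1. Its log2 fold change of -0.35 (standard error 0.146, limma adjusted p = 0.25) was -0.48 against control 0 and -0.23 against control 1, so 1 library decides its size. SMC3, the subunit acetylated by ESCO1 and ESCO2, was at 29.5, 31.0 and 27.7 FPKM, a log2 fold change of -0.12 (limma adjusted p = 0.349). The ratio of RAD21 to SMC3 was 2.59, 2.46 and 2.26 in control 0, control 1 and siE2F1, and that of SMC1A to SMC3 0.700, 0.555 and 0.525. Both ratios were lowest in siE2F1, although for SMC1A the step between the controls was the larger one.

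The 2 STAG genes lay on opposite sides of the controls. STAG1, the paralog linked to cohesion at telomeres and to stable loop anchors, was at 5.05, 4.997 and 3.96 FPKM. It was the lowest of the members in every library, and its siE2F1 value lay well outside the narrow gap between the controls (log2 fold change -0.28, standard error 0.0633, limma adjusted p = 0.140). That gap also enters limma's standard error, here and for RAD21 and NIPBL, so it is not separate support. STAG2, the more abundant paralog, was at 30.4, 33.7 and 37.4 FPKM. Its siE2F1 value exceeded control 1 by about as much as control 1 exceeded control 0 (log2 fold change 0.22, limma adjusted p = 0.271; 0.29 against control 0 and 0.14 against control 1). STAG2 made up 85.8%, 87.1% and 90.4% of the summed FPKM of the pair, and the sum was 35.5, 38.7 and 41.3 FPKM. Taken per SMC3, the sum was 1.20, 1.25 and 1.49. With 1 library against 2, an exact permutation test over samples cannot go below p = 0.333, so no test of these ratios was made.

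The PDS5 proteins, which sit beside the ring and take part both in its release and in keeping cohesion, were nearly level. PDS5A was at 30.47, 30.54 and 31.99 FPKM (log2 fold change 0.07, standard error 0.0596, limma adjusted p = 0.515). PDS5B was at 8.20, 8.21 and 8.23 FPKM, a log2 fold change of 0.004 (standard error 0.0591, limma adjusted p = 0.973). PDS5B thus counts as above both controls by 0.0203 FPKM only, and 83.4% of all genes tested lay outside both controls in one direction or the other. PDS5B made up 21.2%, 21.2% and 20.5% of the pair.

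NIPBL, the loader subunit that also drives the ring's ATPase during loop extrusion and is the gene most often mutated in Cornelia de Lange syndrome, was at 7.95, 7.65 and 9.65 FPKM. The siE2F1 value stood apart from both controls, which were close to each other (log2 fold change 0.28, standard error 0.0645, limma adjusted p = 0.144, and 0.0967 without small RNA genes). Its partner MAU2 had the opposite sign, at 12.8, 10.97 and 9.93 FPKM, with the controls farther apart than siE2F1 and control 1 (log2 fold change -0.23, limma adjusted p = 0.319).

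The 2 acetyltransferases lay on opposite sides of the controls. ESCO2 was at 9.68 FPKM in control 0, 10.6 FPKM in control 1 and 5.74 FPKM in siE2F1. The gap from siE2F1 to the nearer control was 4.12 times the gap between the controls. Such a ratio depends on how close the controls fell and does not rank genes. It was 22.2 for PDS5A and 2.23 for PDS5B, both nearly level. The log2 fold change was -0.73 (standard error 0.0881), at percentile 3.21 of all genes tested; limma's adjusted p was 0.111, and 0.0364 without small RNA genes, the only fit in which ESCO2 passed. Its adjusted p ranged from 0.0364 to 0.188 over the settings tried, with the same direction in each. ESCO1 was at 8.39, 9.46 and 11.5 FPKM, higher than both controls, with a gap to the nearer control 1.89 times that between the controls (log2 fold change 0.33, standard error 0.101, limma adjusted p = 0.182, and 0.106 without small RNA genes). Against control 0 its log2 fold change was 0.41 and against control 1 it was 0.25.

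Set against each other, ESCO2 was 1.15 and 1.12 times ESCO1 in the controls and 0.4996 times ESCO1 in siE2F1. ESCO2's share of the summed FPKM of the pair was 53.6%, 52.9% and 33.3%, and the sum itself was 18.1, 20.1 and 17.2 FPKM. The controls gave nearly the same ratio, and siE2F1 43.3% and 44.4% of it, while the sum changed less than the ratio. In bulk RNA, fewer cells of a kind, such as cells in S phase, and less RNA per cell cannot be told apart. The 6 proliferation markers, among them RRM2, TOP2A, CDK1 and CCNB1, were all below both controls, where 39.7% of all genes tested were. They summed to 260.3, 257.2 and 167.3 FPKM, and their part in the ESCO2 difference was not tested.

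**Figure D3:**
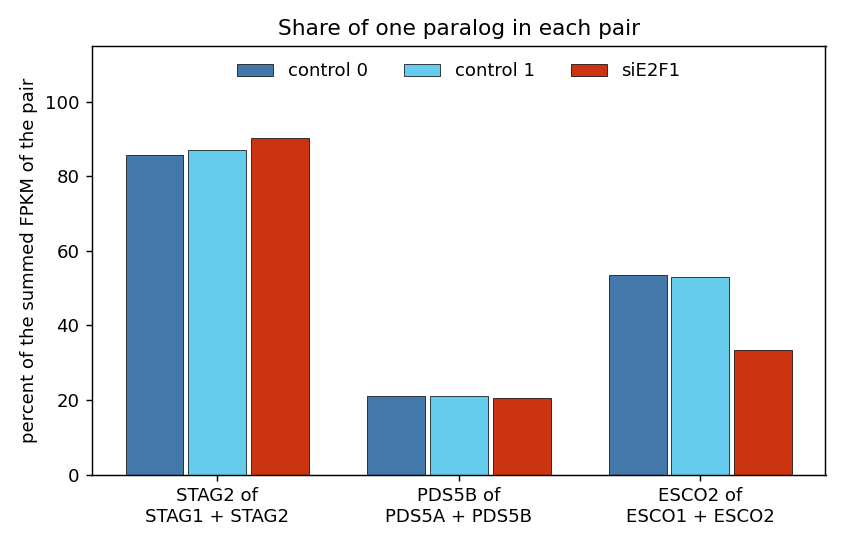
Share of STAG2, PDS5B and ESCO2 in the summed FPKM of each pair of paralogs (vertical axis, percent), with 1 bar for each library. The ESCO2 share was 53.6% and 52.9% in the controls and 33.3% in siE2F1, while the PDS5B share stayed between 20.5% and 21.2%.

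Other genes of the cohesin cycle were taken from a list of 8 partners. In siE2F1, 7 of the 8 were below both controls (background 39.7%) and 1 above (background 43.7%), with a median log2 fold change of -0.44. With limma over all genes tested 0 passed, and 4 were lower at an unadjusted p under 0.05 (background 14.9%). Without small RNA genes 4 were called lower (background 6.36%). These 4 act in S phase or mitosis, as does separase (ESPL1), which passed in neither fit. CDCA5, sororin, which protects acetylated cohesin from WAPL, was at 20.5, 19.2 and 9.74 FPKM (log2 fold change -0.96, limma adjusted p = 0.111, and 0.0272 without small RNA genes). PLK1, the kinase that helps strip cohesin from chromosome arms in prophase, was at 37.8, 32.9 and 18.6 FPKM. SGO1 (listed as SGOL1), shugoshin, which protects cohesin at the centromere, was at 6.55, 6.71 and 4.14 FPKM. PTTG1, securin, the inhibitor of separase, was at 97.5, 91.2 and 67.2 FPKM; it has near-identical copies that can share its reads. For each of these 4 the siE2F1 value lay farther from the nearer control than the controls lay from each other. The call uses that same gap between the controls, so this is not separate support for it.

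Of the partners that did not pass in either fit, 3 are named after inspection of their values, as was MAU2 above. ESPL1, separase, was at 5.60, 4.46 and 3.57 FPKM, with a gap between the controls wider than that between control 1 and siE2F1. WAPL (listed as WAPAL), the release factor, was at 9.64, 9.02 and 8.99 FPKM, and HDAC8, the SMC3 deacetylase, at 9.61, 8.62 and 9.74 FPKM. The siE2F1 value of WAPL lay 0.0224 FPKM from the nearer control and that of HDAC8 0.128 FPKM.

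Factors that travel with the replication fork and help to set up cohesion lay mostly lower. Of 8 listed, 6 were below both controls (background 39.7%) and 0 above (background 43.7%), and the median log2 fold change was -0.46. With limma over all genes tested 0 passed, and 4 were lower at an unadjusted p under 0.05 (background 14.9%). Without small RNA genes 4 were called lower (background 6.36%). DSCC1, of the alternative clamp loader that aids cohesion, was at 9.70, 9.07 and 4.66 FPKM. CHTF18, of the same loader, was at 22.6, 21.0 and 13.8 FPKM. PCNA, the sliding clamp, was at 116.7, 115.7 and 67.8 FPKM, and WDHD1, a replisome adaptor, at 7.82, 8.15 and 5.28 FPKM. In all 4, the siE2F1 value was well outside the span of the controls. These 4 were named because they were called, and the call uses that span, so this adds no support. CHTF8, of the same loader as DSCC1 and CHTF18, was level at 37.8, 37.6 and 37.8 FPKM (log2 fold change 0.003, limma adjusted p = 0.979).

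CTCF, which stops loop extrusion by cohesin at boundaries, was at 21.3, 19.1 and 18.2 FPKM (log2 fold change -0.14, limma adjusted p = 0.435). The other measured boundary factors, YY1 and ZNF143, had log2 fold changes of -0.13 and -0.14, and neither passed in either fit. Of the meiotic cohesin subunits, which are largely restricted to germ cells, STAG3 was at 1.30, 1.24 and 1.17 FPKM, REC8 at 0.265, 0.200 and 0.374 FPKM and RAD21L1 at 0.0852, 0.0845 and 0.169 FPKM. All 3 were below each of the 10 cohesin genes described above in every library, and REC8 and RAD21L1 were too low to test.

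Condensin, a related SMC complex that compacts chromosomes in mitosis, and the MCM helicase gave a comparison. All 8 condensin I and II genes were below both controls, with log2 fold changes from -0.74 to -0.33 and a median of -0.50, and 4 were called lower without small RNA genes (NCAPG2, NCAPH, NCAPG and SMC4). All 6 of MCM2 to MCM7 were below both controls, with log2 fold changes from -1.25 to -0.34 and a median of -0.60, and 4 were called lower in that fit (MCM3, MCM5, MCM2 and MCM4). The 10 cohesin genes spanned -0.73 to 0.33, and ESCO2 was the only one of them below the condensin median. Neither list had a gene that passed limma over all genes tested (7 condensin and 6 MCM genes lower at an unadjusted p under 0.05). Over all genes tested, 39.7% were below both controls and 14.9% lower at an unadjusted p under 0.05. Without small RNA genes 6.36% were called lower. No test of the difference between lists was made. SMC4 and SMC2, the SMC subunits of condensin, were at log2 fold changes of -0.52 and -0.47, beside -0.35 for SMC1A and -0.12 for SMC3.

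**Figure D4:**
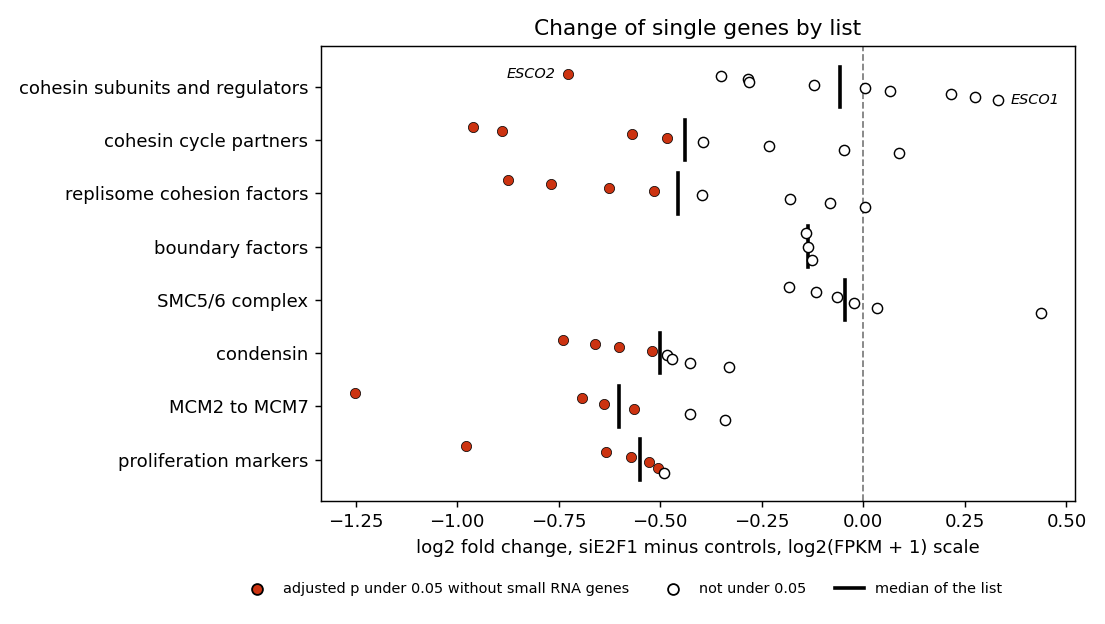
Log2 fold change of single genes, siE2F1 minus controls on the log2(FPKM + 1) scale (horizontal axis), by list; filled points had an adjusted p under 0.05 without small RNA genes and vertical bars are list medians. The cohesin genes spread from -0.73 (ESCO2) to 0.33 (ESCO1) around a median of -0.06, and each condensin and MCM gene lay below 0.

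Promoter sequences from RefSeq (GRCh38.p14, 250 bases before to 50 after each start) were matched for 7 of the 10 members, with 10 starts in all; ESCO1, ESCO2 and RAD21 had no entry. The E2F consensus was searched on both strands as TTTCCCGC, TTTCGCGC, TTTGCCGC and TTTGGCGC. It was present at 4 of the 10 starts (40%), against 643 of 12814 starts (5.02%) of the genes tested that had an entry. The cell cycle homology region, searched as TTTGAA or TTCGAA on both strands, was present at 2 of the 10 starts, against 11.7% of starts of tested genes. No start of a member held both motifs, so no matches overlapped. A match describes the sequence only. The 4 members with an E2F match were SMC1A, STAG1, STAG2 and NIPBL, of which 2 were lower and 2 higher in siE2F1, so a match went with either sign. The windows of 30 bases around each match are shown to let these be compared, 5′ to 3′ on the gene's strand, with the match in capitals. The SMC1A window is chrX:53422656-53422685 (minus strand, its second start), the STAG1 window chr3:136752543-136752572 (minus strand), the STAG2 window chrX:123961996-123962025 (plus strand, the third start) and the NIPBL window chr5:36876709-36876738 (plus strand).
SMC1A: gcactgcggcgTTTCCCGCgcgggctacct
STAG1: cagcggccacgTTTCCCGCcccgctggtgc
STAG2: tgttggggggtTTTGGCGCcacttttgttt
NIPBL: ggttgttagtgTTTGGCGCcggcggaggga
SMC1A and STAG1 thus carried the same version of the consensus, beginning 20 and 183 bases before their starts, and both were lower in siE2F1. STAG2 and NIPBL shared another version, beginning 51 and 49 bases before their starts, and both were higher. That version was also present before a start of TIPIN and of MCM6, both below both controls in siE2F1 (log2 fold changes -0.18 and -0.34), so it did not go with 1 sign. No test of version against sign was made, and SMC1A, STAG1, STAG2 and NIPBL passed in neither fit. Other starts of SMC1A and STAG2 held no match.

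CDCA5, the partner with the largest difference, is shown for comparison because its promoter held both motifs close to the start. It was chosen by both traits, so it shows no link between them. PLK1 and SGO1, also called lower without small RNA genes, held the cell cycle homology region but no E2F match. PTTG1, called there too, held neither motif. ESPL1, which passed in neither fit, held the cell cycle homology region. The 150 bases before the CDCA5 start are chr11:65084041-65084190 (GRCh38.p14, minus strand). Capitals mark the E2F match, which begins 45 bases before the start, and the cell cycle homology region, 26 bases before it.
CDCA5: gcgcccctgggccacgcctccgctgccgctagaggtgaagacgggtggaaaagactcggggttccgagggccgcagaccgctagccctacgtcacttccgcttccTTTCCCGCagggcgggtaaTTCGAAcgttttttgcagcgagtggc
Of the 9 starts of the partner list 1 held the E2F consensus and 4 the cell cycle homology region, and of the 10 condensin starts 1 and 6. In the same order, the 6 MCM starts held 4 and 1, and the 11 starts of replication fork factors 3 and 0. The 6 boundary factor starts held 0 and 1, the 5 SMC5/6 starts 1 and 0, and the 5 meiotic subunit starts 0 and 0. Over the starts of tested genes the shares were 5.02% and 11.7%.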

How the data were processed

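TopHat2 2.0.4, Cufflinks 2.0.2 and hg19 are listed in the submitters' processing notes; their parameters and the annotation are not given in the sources used here. Per gene and library, the authors deposited 1 log2 FPKM value, with a lowest value equal to log2 of 0.1. FPKM was computed as 2 to that value minus 0.1, on the reading that 0.1 was added. Sorted values of any pair of libraries differed by at most 0.0653 log2 units, so a shift common to most genes would be hidden.

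Values were analysed as log2(FPKM + 1), on which changes of low genes look smaller, for the 14401 genes whose mean reached 1 FPKM. The test was limma 3.58.1 in R 4.3.3 (mean-variance trend, two-sided, Benjamini-Hochberg adjustment over all genes tested, threshold 0.05). The spread comes from the 2 controls, 1 residual degree of freedom, and siE2F1 is assumed to vary alike. The step was tested on simulated data that left out small RNA genes and gave all libraries the same spread. It could not test whether siE2F1 varies alike, nor the fit that keeps small RNA genes. A second fit on 13928 genes left out small RNA genes, those with names in SNOR, SCARNA, RNU or MIR except host genes. The members and lists were chosen with earlier results of these data known. Named genes were the members, E2F1, marker genes and, from each list, up to 4 of those called in the second fit, by size of change, or otherwise 2. Named beyond that rule, after their values were seen, were YY1, REC8, RAD21L1, SMC2, TIPIN, MCM6 and CHTF8. So were the partners and SMC5/6 genes so marked in the text. Other settings were a pseudocount of 0.1, no filter, a minimum mean of 5 FPKM, a common median, quantile normalization, the lowest value read as a minimum, no trend, and each control left out. Protein sequences were not used here. Some marker genes are not reported here.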

Additional observations from a re-analysis of the deposited data

How the results depend on the processing

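All settings were planned. The 3 libraries already shared a median (1.58 log2 FPKM) and nearly the same sorted values. The common median and quantile settings could therefore change almost nothing. No paired analysis was possible because the siE2F1 group has 1 library whose label carries no replicate number. E2F1 was lower in each setting, but it did not pass with 0.1 as pseudocount (-2.59, limma adjusted p = 0.0601) or with low genes kept in (-2.12, limma adjusted p = 0.159). The number of members called lower was 0 in each setting but the fit without small RNA genes, where it was 1 (ESCO2); the number called higher was 0 in all. With a minimum mean of 5 FPKM, STAG1 is no longer tested, 4 of the remaining members were below both controls, and the median of the members was 0.00388. No member changed sign in any setting. With a control left out there is no residual degree of freedom, so those are values with no test. The files give no depth, so no counting error could be given.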

Other observations

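The SMC5/6 complex, another SMC complex, which acts in DNA repair and at stalled forks, was spread around 0. Of its 6 listed genes 2 were below both controls and 2 above, beside 39.7% and 43.7% of all genes tested. The median log2 fold change was -0.04, and 0 were called with or without small RNA genes. SMC5 was at 7.25, 8.10 and 7.28 FPKM (control 0, control 1, then siE2F1), and SMC6 at 7.43, 7.76 and 7.45 FPKM, so siE2F1 lay between the controls for both ATPase subunits. NSMCE2, a SUMO ligase of the complex, was at 18.1, 22.9 and 27.9 FPKM (log2 fold change 0.44, limma adjusted p = 0.251). Its controls differed from each other by nearly as much as control 1 did from siE2F1. NSMCE4A was at 22.6, 25.3 and 20.9 FPKM, below both controls (log2 fold change -0.18, limma adjusted p = 0.342). SMC5 and SMC6 were named after inspection of their values.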
